A study of Mus musculus with 16 samples.

Results

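The genes described here are 7 markers by which luminal progenitor cells of the mammary gland are recognised: the surface receptors Kit and Cd14, the integrin subunits Itga2 and Itgb3, the surface glycoprotein Cd24a, and the aldehyde dehydrogenases Aldh1a3 and Aldh1a1. They were chosen by gene symbol, taking every probe set (the group of array probes that reads 1 transcript) annotated to that symbol alone. All 7 of these genes, of 17097 named genes on the array, were found, with 11 probe sets: 3 for Aldh1a3, 2 each for Itgb3 and Cd24a, and 1 for each of the other genes. RNA came from luminal mammary cells of mice, isolated by fluorescence-activated cell sorting, and was measured on 16 Affymetrix arrays, 4 in each of 4 genotype groups. All values are RMA signals on the log2 scale, so that a difference of 1 means a doubling of signal.

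Every group carried MMTV-Cre, in which a mammary tumour virus promoter drives Cre recombinase in mammary epithelium. The p38α-lox PyMT group carried a floxed p38α allele, MMTV-Cre and MMTV-PyMT, a transgene for the polyoma middle T oncogene. The PyMT group carried MMTV-Cre and MMTV-PyMT. Mice of both groups were 6 weeks old. The p38α-lox group carried the floxed allele and MMTV-Cre, and the MMTV-Cre group carried MMTV-Cre alone, both from mice of 9 weeks. Age and PyMT therefore cannot be told apart. Nothing in the labels says that each array is a separate animal, so each p measures only the spread between these samples, which may be technical. Which antibodies gated the luminal cells was not given in the sources used here.

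Luminal progenitors are the hormone receptor-poor cells of the luminal layer, from which milk-secreting alveolar cells arise, and they are regarded as a source of some mammary tumours. Kit is the receptor tyrosine kinase for stem cell factor, and Cd14 is a co-receptor that hands bacterial lipopolysaccharide to Toll-like receptor 4. Itga2 (CD49b) and Itgb3 (CD61) sort progenitors from other luminal cells in the mouse. Aldehyde dehydrogenases of the Aldh1a family oxidise retinaldehyde to retinoic acid, and their activity is used as a progenitor stain. Cd24a is carried by mammary epithelial cells in general and is often used to gate luminal cells.

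Array medians lay between 4.63 and 4.88, and correlations between arrays between 0.885 and 0.990. The arrays with the lowest median correlation to the others were PyMT replicate 4 (0.934) and p38α-lox replicate 2 (0.934). Pan-luminal keratins, claudins, Epcam and Cdh1, 8 genes in all, were well measured on every array, with a mean log2 signal of 10.60 to 11.65. Mapk14, which encodes p38α, had 7.09 to 7.34 in p38α-lox PyMT arrays against 6.88 to 7.64 in PyMT arrays, and 6.37 to 8.16 in p38α-lox arrays against 5.56 to 7.43 in MMTV-Cre arrays. Of its 6 probe sets, p38α-lox PyMT means were below the PyMT means in 5, while p38α-lox means were below the MMTV-Cre means in 0. No source used here says where these probes lie relative to the deleted part, so Mapk14 checks neither the deletion nor the labels. Numbers in the sample titles form a low range (9 arrays) and a high range (7), of unstated meaning. Differences within each of these title ranges are given where they bear on a result.

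Aldh1a3 was the 1 marker that passed a test over all genes. It fell by 1.85 ± 0.416 on the log2 scale in PyMT relative to MMTV-Cre arrays (4 each, standard error from a fit of all 16). That call ended in 5 of 8 fits that left out 1 array and in 5 of 13 other settings. Without the oncogene Aldh1a3 was also lower and Kit higher in p38α-lox than in MMTV-Cre arrays, by estimates of −1.55 ± 0.416 and 1.39 ± 0.517, but neither passed. The markers did not move as a block. Itgb3 had higher values in PyMT arrays than in MMTV-Cre arrays while Itga2 had lower ones, and Cd24a stayed within a narrow range in all 4 groups. Aldh1a1 did not reach the level at which genes were tested.

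**Figure D1:**
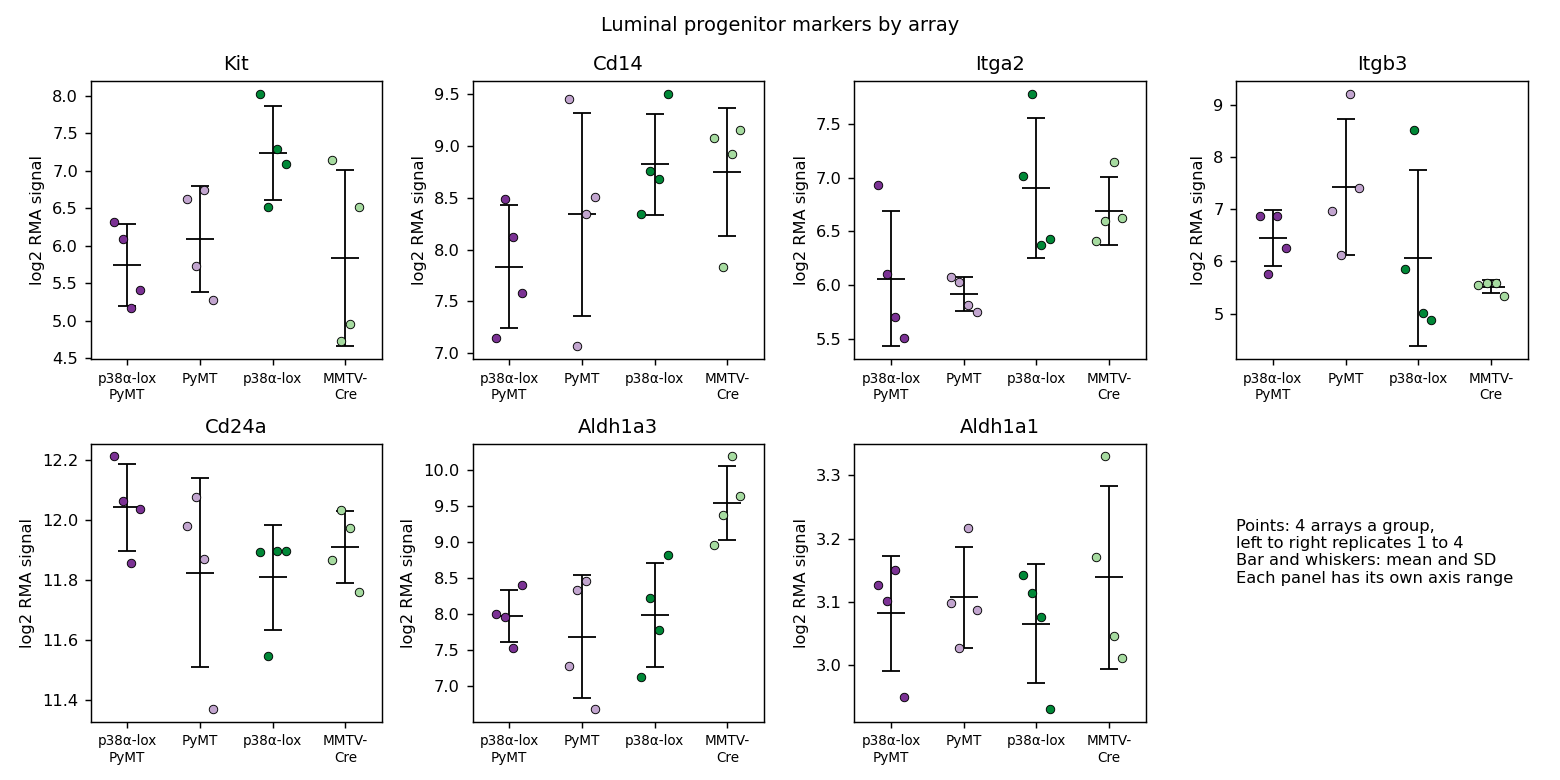
log2 RMA signal (vertical axes, a separate range for each gene) of the 7 markers in the 4 genotype groups, with 1 point an array and the mean and SD of 4 arrays as bar and whiskers. All 4 MMTV-Cre arrays of Aldh1a3 lie above every array of the other groups, Kit is highest in p38α-lox, and Aldh1a1 stays between 2.93 and 3.33 throughout.

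Aldh1a3 is the retinaldehyde dehydrogenase most tied to progenitor cells of the breast. Its probe set of highest signal gave 8.00, 7.96, 7.54 and 8.41 in p38α-lox PyMT arrays. The PyMT arrays gave 7.29, 8.34, 8.46 and 6.68. In p38α-lox arrays it was 7.13, 8.23, 7.78 and 8.83, and in MMTV-Cre arrays 8.96, 9.38, 10.20 and 9.64. The lowest MMTV-Cre array thus lay above the highest array of each other group, and the other 3 groups overlapped one another. The group means were 7.98 ± 0.357 in p38α-lox PyMT, 7.69 ± 0.853 in PyMT, 7.99 ± 0.717 in p38α-lox and 9.54 ± 0.516 in MMTV-Cre (SD, n = 4 each). In bulk RNA such as this, fewer cells of a type and less RNA per cell cannot be told apart.

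PyMT set against MMTV-Cre arrays shows what went with the oncogene and the younger age. Aldh1a3 fell by 1.85 on the log2 scale, which is 3.61-fold lower (95% interval −2.74 to −0.97; limma adjusted p = 0.0437 over 14410 genes; exact permutation p = 0.0286, the smallest that 4 arrays against 4 allow). It was 1 of 6 markers tested, where 1.26% of all genes were called and 0.382% were called lower. The call was narrow. It held in 3 of the 8 fits that left out 1 array and ended in 5, with adjusted p from 0.0240 to 0.143 and differences from −2.11 to −1.52; it ended without MMTV-Cre replicates 1, 3 or 4 (adjusted p of 0.0597, 0.133 and 0.114) and without PyMT replicates 1 or 4 (0.143 and 0.111). With only the PyMT and MMTV-Cre arrays in the fit the adjusted p was 0.128, and without a filter on low signals 0.0563, for the same difference. Inside the low and high title ranges the differences were −1.74 and −1.46, the second resting on 1 PyMT array. Milk genes and basal genes had mostly positive estimates in this comparison (5 of 6 and 6 of 8), with list means that overlapped between the groups. The mean of 6 milk genes was 8.75 to 11.05 in PyMT against 7.49 to 9.96 in MMTV-Cre arrays, and that of 8 basal genes 7.12 to 8.00 against 5.76 to 7.57. Of the milk genes 2 rose, Wap and Lalba, both milk proteins, by 3.35 and 3.21 on the log2 scale (limma adjusted p = 0.00203 and 0.0398). The pan-luminal mean was 10.60 to 11.36 in PyMT and 10.94 to 11.65 in MMTV-Cre arrays. Of 7 hormone-sensing luminal genes, markers of another luminal cell type, 6 had negative estimates here (median −0.89 against 0.03 over all genes), with 0 called. Their list mean was 6.06 to 7.02 in PyMT and 5.91 to 8.96 in MMTV-Cre arrays. The part of any of these cells in the Aldh1a3 difference was not tested.

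The 3 probe sets of Aldh1a3 gave the same direction. In a fit over all 33856 probe sets above the filter, PyMT minus MMTV-Cre was −1.85 ± 0.416 for the probe set of highest signal (adjusted p = 0.0539), −1.73 ± 0.342 for the second by mean signal (adjusted p = 0.0327) and −1.59 ± 0.437 for the third (adjusted p = 0.111), all by limma. Of the 10 marker probe sets tested, 1 was called, where 0.851% of all probe sets were. With all 3 probe sets averaged the gene was called, at −1.72 and adjusted p = 0.0274. Across the 16 arrays the probe sets correlated with one another at r of 0.792 to 0.899, and at 0.610 to 0.820 after subtraction of the group means. These are descriptions of probes that read the same RNA.

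**Figure D2:**
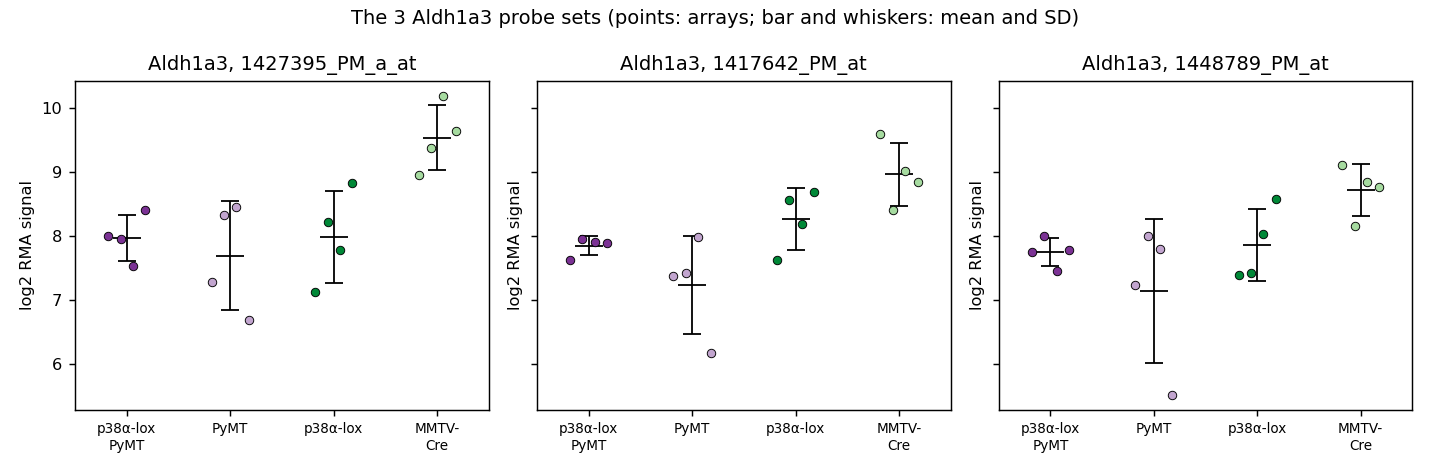
log2 RMA signal (vertical axis, shared) of each Aldh1a3 probe set in the 4 groups, in panels from highest to lowest mean signal, with 1 point an array and the mean and SD of 4 arrays as bar and whiskers. In all 3 probe sets every MMTV-Cre array is above every PyMT array, and PyMT replicate 4 is the lowest array, down to 5.52 in the third.

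Between p38α-lox and MMTV-Cre arrays, which differ by the floxed allele as labelled, the Aldh1a3 difference was −1.55 ± 0.416 (95% interval −2.44 to −0.67). The arrays were fully separated (exact permutation p = 0.0286), yet the limma adjusted p was 0.656, as no gene was called in this comparison (0% of 14410, with 690 or 4.79% at an unadjusted p under 0.05; Aldh1a3 was 42nd by p). Of the 6 markers tested 1, Aldh1a3, had groups that did not overlap, as had 2.1% of all genes. The other probe sets gave smaller differences, −0.70 ± 0.342 and −0.87 ± 0.437, with overlapping arrays. Within the low and high title ranges the difference was −1.50 and −1.61, whereas that of Mapk14 changed sign (−0.69 in the low range, 2.24 in the high range). This comparison and that of PyMT use the same 4 MMTV-Cre arrays, so the lower Aldh1a3 values in both rest on the same high controls. All 7 hormone-sensing luminal genes had negative estimates in p38α-lox minus MMTV-Cre arrays (median −0.84 against 0.00 over all genes), with 0 called. The part of hormone-sensing cells in this Aldh1a3 difference was not tested.

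With PyMT, p38α-lox PyMT minus PyMT was 0.28 ± 0.416 for Aldh1a3 (95% interval −0.60 to 1.17; limma adjusted p = 0.999). PyMT replicate 4 was low, and without it the difference was −0.05. The other probe sets gave 0.61 ± 0.342 and 0.61 ± 0.437. No gene was called here either (0% of 14410, with 516 or 3.58% at an unadjusted p under 0.05). None of the 6 markers was free of overlap in this comparison, as 2.55% of all genes were. An interaction term, which asks whether the p38α-lox difference was the same with and without PyMT, was 1.84 ± 0.588 for Aldh1a3 (unadjusted p = 0.00702, 38th of 14410 genes, limma adjusted p = 0.992). All 3 probe sets, which read the same RNA, gave a positive interaction, between 1.32 and 1.84. The same 4 high MMTV-Cre arrays enter this term. The interaction called 0% of genes, with 406 or 2.82% at an unadjusted p under 0.05. In p38α-lox PyMT minus p38α-lox arrays the Aldh1a3 estimate was −0.02 ± 0.416 (95% interval −0.90 to 0.87), with a sign that changed under other settings.

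Aldh1a1, the family member whose activity stains haematopoietic and many other stem cells, had a mean signal of 3.10 over the 16 arrays, below the filter of 3.67. It ranged from 2.95 to 3.15 in p38α-lox PyMT, 3.03 to 3.22 in PyMT, 2.93 to 3.14 in p38α-lox and 3.01 to 3.33 in MMTV-Cre arrays. The groups overlapped, with exact permutation p between 0.486 and 0.743 in the 4 pairwise comparisons, and no fold change is given for a signal at this level. Its close mouse relative Aldh1a7 was below the filter too (group means 3.08 to 3.44). The third retinaldehyde dehydrogenase, Aldh1a2, passed it narrowly, with group means of 4.19 to 4.26 and differences between −0.06 and 0.04 in the 4 pairwise comparisons.

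Of 17 other aldehyde dehydrogenases 16 were tested, and 1 was called in any comparison. Aldh1l2, a mitochondrial enzyme of folate metabolism, rose by 1.56 ± 0.322 in p38α-lox PyMT relative to p38α-lox (limma adjusted p = 0.0364; 0.777% of genes were called there) and had a difference of 1.28 ± 0.322 in PyMT relative to MMTV-Cre (adjusted p = 0.0708). The median of these 16 genes was 0.17 in the first of those comparisons, against −0.02 over all genes, and 0.11 in the second, against 0.03. In p38α-lox minus MMTV-Cre arrays 0 of 16 were called, with a median of 0.08 against 0.00 over all genes.

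The retinoic acid pathway, which makes, carries, degrades and reads the product of these enzymes and shares Aldh1a2 with the enzyme list, had 17 of 19 listed genes tested and 0 called in any comparison. Rdh11, a retinal reductase, had a difference of −1.06 ± 0.272 in p38α-lox minus MMTV-Cre arrays (unadjusted p = 0.00143, limma adjusted p = 0.626), and of −0.67 ± 0.272 in PyMT minus MMTV-Cre arrays. Cyp26a1, which degrades retinoic acid, had −0.34 ± 0.150 in p38α-lox minus MMTV-Cre arrays (limma adjusted p = 0.999). Its signal was near the filter of 3.67, with group means of 3.77 to 4.23. The receptor Rara had 0.84 ± 0.268 in PyMT minus MMTV-Cre (adjusted p = 0.149) and 0.70 ± 0.268 in p38α-lox PyMT minus p38α-lox arrays. List medians were 0.03 for p38α-lox minus MMTV-Cre and 0.00 for PyMT minus MMTV-Cre, against 0.00 and 0.03 over all genes. For p38α-lox PyMT minus PyMT the median was −0.19, with 13 of 17 estimates negative, against −0.04 over all genes. For p38α-lox PyMT minus p38α-lox it was −0.06 against −0.02, and for the interaction −0.13, with 12 of 17 negative, against −0.04.

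**Figure D3:**
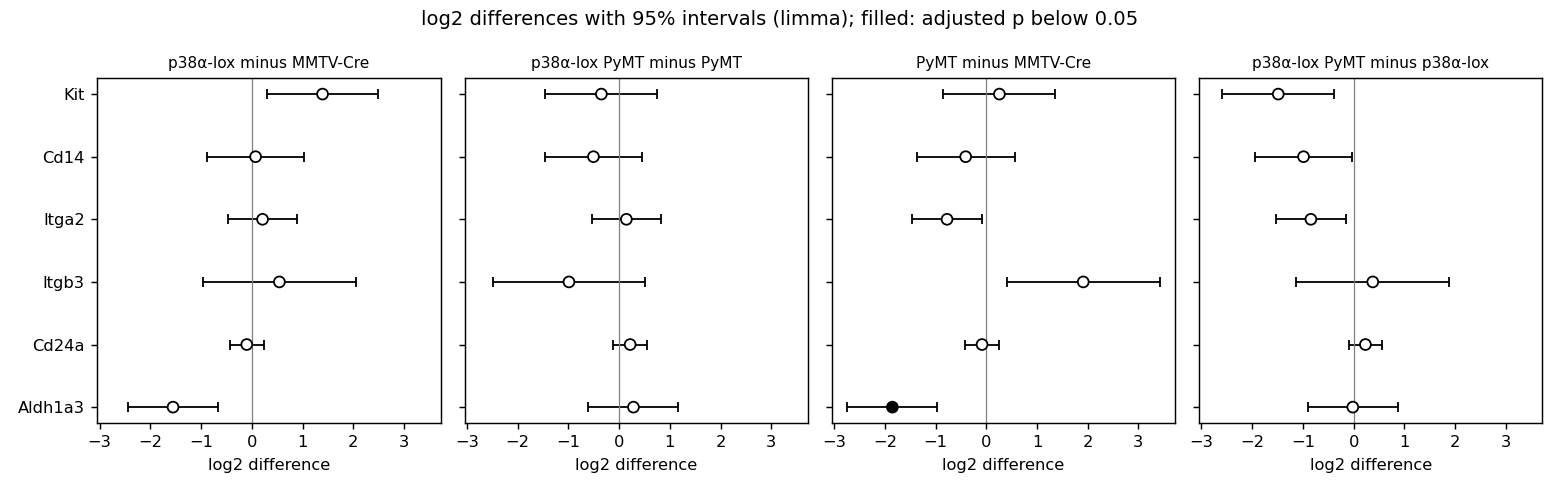
log2 differences (horizontal axes) of the 6 tested markers in the 4 pairwise comparisons, with 95% intervals from limma; filled points had an adjusted p below 0.05. The single filled point is Aldh1a3 in PyMT minus MMTV-Cre arrays, at −1.85, and Cd24a has the narrowest intervals.

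Kit read 6.32, 6.09, 5.17 and 5.41 in p38α-lox PyMT arrays and 6.62, 5.74, 6.75 and 5.28 in PyMT arrays. In p38α-lox arrays it read 8.03, 6.51, 7.29 and 7.10, and in MMTV-Cre arrays 7.15, 4.73, 4.96 and 6.52. MMTV-Cre was the most spread group, with replicates 2 and 3 low, and the p38α-lox arrays were all in the upper part of the range. The group means were 5.75 ± 0.544 in p38α-lox PyMT, 6.10 ± 0.705 in PyMT, 7.23 ± 0.625 in p38α-lox and 5.84 ± 1.18 in MMTV-Cre arrays (SD, n = 4 each). The p38α-lox mean was highest, followed by PyMT, MMTV-Cre and p38α-lox PyMT, and these other 3 lay within 1 SD of each other.

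The Kit difference was 1.39 ± 0.517 in p38α-lox minus MMTV-Cre arrays (95% interval 0.29 to 2.50; unadjusted p = 0.0167, limma adjusted p = 0.913), with overlapping groups (exact permutation p = 0.143). The difference was 1.33 and 1.46 within the low and high title ranges. It ran from 1.03 without MMTV-Cre replicate 2 to 1.83 without MMTV-Cre replicate 1. In p38α-lox PyMT relative to p38α-lox arrays Kit had a difference of −1.49 ± 0.517 (limma adjusted p = 0.226). Every p38α-lox PyMT array was below every p38α-lox array (exact permutation p = 0.0286), as was found for 1 of 6 markers, where 8.16% of all genes did not overlap. The difference passed the threshold when arrays were weighted by quality (−1.65, limma adjusted p = 0.0128), a setting in which many more of all genes passed than in the main fit. Between p38α-lox PyMT and PyMT arrays the estimate was −0.35 ± 0.517 (95% interval −1.45 to 0.75), and the interaction was −1.74 ± 0.731 (unadjusted p = 0.0309, limma adjusted p = 0.992). The same p38α-lox arrays enter the first 2 differences and the interaction.

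Markers of hormone-sensing luminal cells, a different luminal cell type, varied among the MMTV-Cre arrays as Kit did, in the other direction. The mean of 7 such genes was 5.86 to 7.87 in p38α-lox PyMT and 6.06 to 7.02 in PyMT arrays. It was 6.33 to 6.44 in p38α-lox arrays, against 6.24, 8.96, 7.37 and 5.91 in MMTV-Cre replicates 1 to 4. The 2 MMTV-Cre arrays with low Kit thus had the high hormone-sensing signal. In p38α-lox PyMT the array with most of this signal, replicate 1 at 7.87, had the highest Kit of its group, so the opposition was not seen there. None of the 7 genes was called between p38α-lox and MMTV-Cre arrays, although all 7 had negative estimates (median −0.84 against 0.00 over all genes). The part of these cells in the Kit difference was not tested. Of 8 markers of mast cells, which also carry Kit, 4 were below the filter (Cpa3, Mcpt4, Fcer1a and Ms4a2) and 4 passed it, among them Cma1 with group means of 6.15 to 6.31 and Hdc with 5.34 to 5.45. The list mean was 3.98 to 4.35 on every array and 0 of the 4 tested were called in any comparison. The part of mast cells in the Kit values was not tested.

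**Figure D4:**
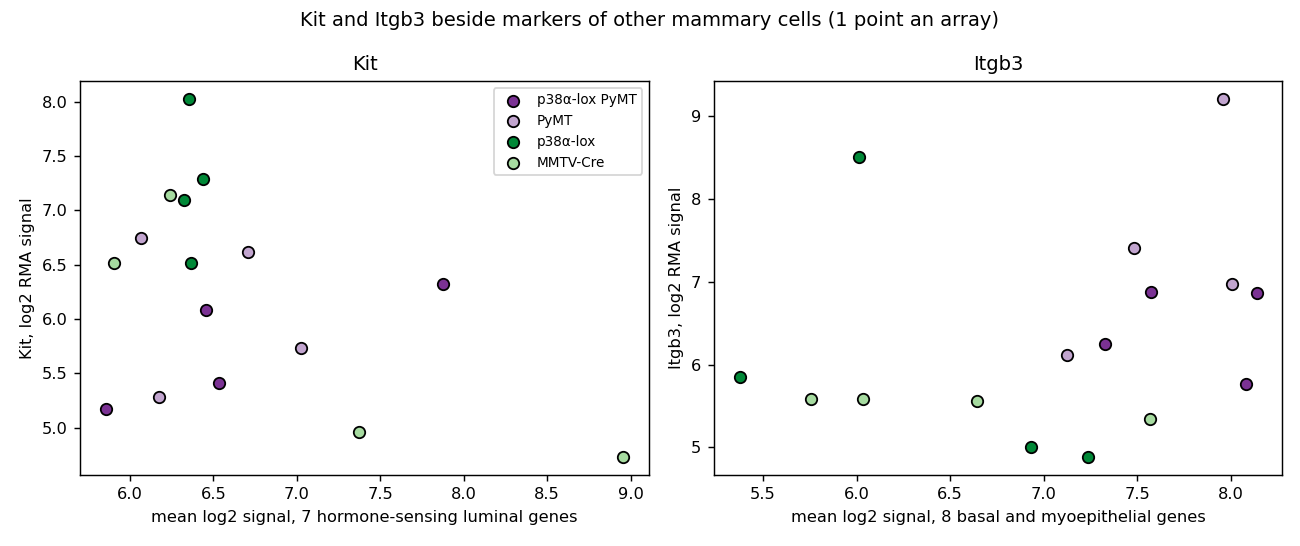
Left, log2 signal of Kit against the mean log2 signal of 7 hormone-sensing luminal genes; right, log2 signal of Itgb3 against the mean of 8 basal and myoepithelial genes, with 1 point an array and colours for the 4 groups. The 2 MMTV-Cre arrays with the highest hormone-sensing signal, 8.96 and 7.37, have the lowest Kit values. PyMT and p38α-lox PyMT arrays lie at 7.12 or above on the basal axis. So do MMTV-Cre replicate 4 (7.57, Itgb3 5.34) and p38α-lox replicate 4 (7.23, Itgb3 4.88).

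Kitl, the ligand of Kit, is made by neighbouring cells and was measured here in the luminal sort itself. It averaged 8.28 ± 0.344 in p38α-lox PyMT, 7.94 ± 1.22 in PyMT, 8.48 ± 0.699 in p38α-lox and 8.88 ± 0.716 in MMTV-Cre arrays (SD, n = 4 each), with overlapping groups and no call. Of 16 listed genes of Kit ligand and signalling 14 were tested and 0 were called in any comparison. Between p38α-lox and MMTV-Cre arrays 12 of the 14 had negative estimates (median −0.11 against 0.00 over all genes). The one of lowest p was the adaptor Shc1, at −0.54 ± 0.226 (limma adjusted p = 0.984). The transcription factor Stat5b, which also carries prolactin signals, had −0.77 ± 0.263 in PyMT minus MMTV-Cre arrays (adjusted p = 0.182) and −0.69 ± 0.263 in p38α-lox PyMT minus p38α-lox arrays (adjusted p = 0.280).

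Itga2 pairs with integrin β1 to form the collagen receptor α2β1. It read 6.93, 6.10, 5.70 and 5.50 in p38α-lox PyMT arrays and 6.07, 6.03, 5.81 and 5.75 in PyMT arrays, against 7.02, 7.78, 6.38 and 6.43 in p38α-lox and 6.41, 6.59, 7.14 and 6.62 in MMTV-Cre arrays. Every PyMT array was lower than every MMTV-Cre array (exact permutation p = 0.0286), with a difference of −0.77 ± 0.322 (95% interval −1.46 to −0.09; limma adjusted p = 0.290). The difference was −0.55 and −1.07 within the low and high title ranges. In p38α-lox PyMT minus p38α-lox arrays the estimate was −0.84 ± 0.322, with overlap because of p38α-lox PyMT replicate 1 (exact permutation p = 0.114); without that array it was −1.13 (adjusted p = 0.0857). The p38α-lox estimates were 0.21 ± 0.322 without PyMT (95% interval −0.48 to 0.90) and 0.14 ± 0.322 with PyMT (−0.54 to 0.83). Without PyMT the value changed sign when p38α-lox replicate 2 was left out (−0.08) and between the title ranges (0.90 in the low and −0.48 in the high range).

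Itgb3 pairs with the αv subunit to bind vitronectin and osteopontin, and with αIIb on platelets. Its probe set of highest signal gave 6.88, 5.77, 6.87 and 6.25 in p38α-lox PyMT arrays and 6.97, 6.12, 9.21 and 7.41 in PyMT arrays. It gave 5.85, 8.51, 5.005 and 4.88 in p38α-lox arrays and 5.56, 5.59, 5.59 and 5.34 in MMTV-Cre arrays. The MMTV-Cre arrays were close together, and single arrays stood high in 2 other groups, PyMT replicate 3 and p38α-lox replicate 2. The second probe set also gave PyMT replicate 3 as the highest of all arrays, at 7.78, but p38α-lox replicate 2 only at 5.69, against 4.57 to 4.97 in the rest of its group. The probe sets correlated at r = 0.737 over the 16 arrays.

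PyMT minus MMTV-Cre was 1.91 ± 0.706 for Itgb3 (95% interval 0.41 to 3.42; limma adjusted p = 0.220) and 1.68 ± 0.447 for the second probe set (adjusted p = 0.0977 over all probe sets). Both probe sets had every PyMT array above every MMTV-Cre array (exact permutation p = 0.0286 each). Together with Aldh1a3 and Itga2 this made 3 of 6 markers without overlap, where 7.09% of all genes had none, and the directions were mixed. Without PyMT replicate 3 the difference was 1.32. It passed the threshold with arrays weighted by quality (1.74, limma adjusted p = 0.0408), where many more of all genes passed than in the main fit. In the low title range it was 1.26 (adjusted p = 0.741) and in the high range 3.75, a value from 1 PyMT array, replicate 3, with no replicate check. Between p38α-lox and MMTV-Cre arrays the estimate of 0.54 ± 0.706 became −0.27 without p38α-lox replicate 2, and was −0.07 ± 0.447 in the second probe set. Between p38α-lox PyMT and PyMT arrays it was −0.99 ± 0.706 (95% interval −2.49 to 0.52; −0.39 without PyMT replicate 3 and −1.42 without PyMT replicate 2), with −0.86 ± 0.447 in the second probe set. For p38α-lox PyMT minus p38α-lox arrays it was 0.38 ± 0.706, with −0.86 in the low and 1.61 in the high title range (adjusted p = 0.733 and 0.0457, 2 arrays each), and 0.90 ± 0.447 in the second probe set.

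Basal and myoepithelial genes were followed beside Itgb3. The mean of 8 such genes was 7.33 to 8.14 in p38α-lox PyMT against 5.37 to 7.23 in p38α-lox arrays, and 7.12 to 8.00 in PyMT against 5.76 to 7.57 in MMTV-Cre arrays. Trp63, the basal transcription factor, was the 1 of 8 called in PyMT relative to MMTV-Cre (2.20 ± 0.390, limma adjusted p = 0.0142), where 1.26% of all genes were. Krt14, a basal keratin, had 2.54 ± 0.667 there (adjusted p = 0.0784). Arrays with high basal signal did not all have high Itgb3: MMTV-Cre replicate 4 had 7.57 with Itgb3 at 5.34, and p38α-lox replicate 4 had 7.23 with 4.88, while p38α-lox replicate 2 had 6.01 with 8.51. The part of basal cells in the Itgb3 values was not tested. Endothelial and platelet genes, of cells that also carry Itgb3, had a list mean of 4.47 to 4.96 on all arrays, 7 of 8 above the filter and the platelet gene Pf4 below it, and 0 were called in any comparison. Fibroblast genes, 3 of 6 above the filter, had a list mean of 4.22 to 5.86 in p38α-lox PyMT and 4.42 to 5.80 in PyMT arrays. It was 4.30 to 4.67 in p38α-lox and 4.85 to 5.64 in MMTV-Cre arrays, with 0 called in any comparison. The part of endothelial cells, platelets and fibroblasts in the Itgb3 values was not tested.

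Among 13 other integrin subunits on the array 11 were tested and 0 were called in any comparison. Estimates were positive for 10 of 11 in PyMT minus MMTV-Cre arrays (median 0.44 against 0.03 over all genes) and for 9 of 11 in p38α-lox PyMT minus p38α-lox arrays (median 0.62 against −0.02). Itgav, the αv partner of Itgb3, averaged 9.00 ± 0.790 in p38α-lox PyMT, 9.49 ± 0.283 in PyMT, 8.24 ± 1.37 in p38α-lox and 7.75 ± 1.06 in MMTV-Cre arrays (SD, n = 4 each). Its difference between PyMT and MMTV-Cre arrays was 1.74 ± 0.619 (adjusted p = 0.200). Itga8, a subunit that binds nephronectin, had 1.66 ± 0.592 there (adjusted p = 0.202). Itgb1, the partner of Itga2, had group means of 10.01 to 10.51 and a difference of 0.15 ± 0.264 between PyMT and MMTV-Cre arrays.

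Cd14 read 7.15, 8.49, 8.12 and 7.58 in p38α-lox PyMT arrays and 9.45, 7.07, 8.34 and 8.51 in PyMT arrays. It read 8.34, 8.76, 8.69 and 9.51 in p38α-lox arrays and 9.08, 7.83, 8.93 and 9.16 in MMTV-Cre arrays. PyMT held both the lowest and almost the highest array, and the p38α-lox PyMT values were low as a group. The group means were 7.84 ± 0.593 in p38α-lox PyMT, 8.34 ± 0.981 in PyMT, 8.82 ± 0.490 in p38α-lox and 8.75 ± 0.622 in MMTV-Cre arrays (SD, n = 4 each). In order of level p38α-lox was followed by MMTV-Cre, PyMT and p38α-lox PyMT, and no neighbours in that order differed by more than their SD. The widest gap was that of p38α-lox PyMT to p38α-lox arrays, at −0.99 ± 0.451 (95% interval −1.95 to −0.02; exact permutation p = 0.0571; limma adjusted p = 0.395). It was −0.73 and −1.24 within the low and high title ranges. The p38α-lox difference was 0.07 ± 0.451 without PyMT and −0.51 ± 0.451 with PyMT. The value with PyMT was −0.14 without PyMT replicate 1, −0.93 without PyMT replicate 2 and −0.99 with arrays weighted by quality.

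Macrophages and monocytes, which carry much Cd14, had a marker list mean of 4.37 to 4.60 in p38α-lox PyMT, 4.44 to 4.57 in PyMT, 4.03 to 4.63 in p38α-lox and 4.11 to 4.53 in MMTV-Cre arrays, with Itgam and Ptprc of 9 markers below the filter. The 1 call among them was Cd68, a lysosomal protein, which rose by 2.74 ± 0.560 in p38α-lox PyMT relative to p38α-lox arrays (limma adjusted p = 0.0357). In that comparison 0.777% of all genes were called, and Cd14 had a negative estimate. Of the 7 macrophage and monocyte markers tested there, 4 had positive and 3 negative estimates (median 0.00 against −0.02 over all genes). Of the partners of Cd14, Tlr4 averaged 5.67 ± 0.310 in p38α-lox PyMT, 5.56 ± 0.145 in PyMT, 6.46 ± 0.476 in p38α-lox and 6.01 ± 0.162 in MMTV-Cre arrays (SD, n = 4 each). Its difference was −0.80 ± 0.211 in p38α-lox PyMT minus p38α-lox arrays (adjusted p = 0.103) and −0.45 ± 0.211 in PyMT minus MMTV-Cre arrays (adjusted p = 0.370). Ly96, the protein that holds lipopolysaccharide for Tlr4, had group means of 3.91 to 4.35 and differences between −0.44 and 0.09.

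Of 10 tested co-receptors and adaptors 1 was called, in PyMT minus MMTV-Cre arrays, where 1.26% of all genes were. Traf6, the ubiquitin ligase that relays Toll-like receptor signals, fell by 1.58 on the log2 scale in PyMT relative to MMTV-Cre arrays (standard error 0.312, adjusted p = 0.0257), and had −1.33 ± 0.312 in p38α-lox PyMT minus p38α-lox arrays (adjusted p = 0.0621). Lbp, the serum protein that delivers lipopolysaccharide to Cd14, had 1.79 ± 0.433 in PyMT minus MMTV-Cre arrays (adjusted p = 0.0606). The list median was −0.12 there, against 0.03 over all genes.

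Cd24a had the smallest standard errors of the 6 tested markers. Its main probe set gave 12.21, 12.06, 11.86 and 12.04 in p38α-lox PyMT arrays and 11.98, 12.08, 11.87 and 11.37 in PyMT arrays. It gave 11.90, 11.55, 11.90 and 11.90 in p38α-lox arrays and 11.87, 12.03, 11.98 and 11.76 in MMTV-Cre arrays. The low arrays of this probe set, PyMT replicate 4 and p38α-lox replicate 2, were the ones with the lowest correlation to the others. In the second probe set PyMT replicate 4 was again the lowest of its group, at 11.36. There p38α-lox replicate 2 was not low, at 11.62 in a group of 11.53 to 11.64. Differences were −0.10 ± 0.155 for p38α-lox minus MMTV-Cre (95% interval −0.43 to 0.23), 0.22 ± 0.155 for p38α-lox PyMT minus PyMT (−0.11 to 0.55), −0.08 ± 0.155 for PyMT minus MMTV-Cre (−0.42 to 0.25) and 0.23 ± 0.155 for p38α-lox PyMT minus p38α-lox arrays (−0.10 to 0.56). Both Cd24a probe sets were near the top of the array's range, at the 99.5 and 99.6 percentiles of probe-set means, and whether the array still responds in proportion there was not tested. The second probe set gave differences between −0.10 and 0.07. Siglecg, a sialic acid receptor that binds Cd24a, had group means of 4.13 to 4.24.

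Across the 16 arrays the 15 pairs of tested markers had Pearson r between −0.425 (Cd14 and Cd24a) and 0.386 (Kit and Cd14). After subtraction of the group means r ran from −0.430 to 0.492 (Itga2 and Itgb3). Kit and Aldh1a3 had r = −0.247, or −0.173 after subtraction. These correlations describe the same 16 arrays, which share normalization and cell sort.

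The genes most like each marker, by Pearson r over all 16 arrays among 14410 genes, were other ones. For Kit they were Bcl2l15 (r = 0.849), Cited2 (0.846) and Ube2e3 (0.843). For Aldh1a3 they were Cmtm8 (0.866), Rabif (0.849) and Mtfr1 (0.840), and for Itgb3 Cnr1 (0.870), Adam12 (0.863) and Zfp469 (0.862). Itga2 was closest to Ces2a (0.907), AU020206 (0.898) and Rpl13 (0.895). Cd24a was closest to Canx (0.920), Slc19a2 (0.907) and Ptpn11 (0.896), and Cd14 to D130037M23Rik (0.852), Fcgbp (0.815) and Cryab (0.809). After subtraction of the group means the r of these same genes ran from 0.615 (Aldh1a3 and Mtfr1) to 0.926 (Cd24a and Slc19a2). Those of Aldh1a3 were then 0.705 for Cmtm8, 0.774 for Rabif and 0.615 for Mtfr1. As the highest of 14410 values the r over all 16 arrays are described without a test.

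Further genes by which luminal progenitors are known, 11 of 12 on the array and all tested, gave 0 calls in any comparison. In PyMT minus MMTV-Cre arrays 8 of 11 had positive estimates (median 0.44 against 0.03 over all genes), with the casein Csn3 at 0.58 ± 0.160 (limma adjusted p = 0.0896), where Aldh1a3 fell. In p38α-lox PyMT minus p38α-lox arrays the median was 0.21, and the epithelial transcription factor Ehf had −1.66 ± 0.442 (adjusted p = 0.104). In p38α-lox minus MMTV-Cre arrays the median was 0.11, and lactoferrin, Ltf, had −0.81 ± 0.297 (adjusted p = 0.913). Counted over the 6 tested markers themselves, 2 had an unadjusted p under 0.05 in p38α-lox minus MMTV-Cre, 0 in p38α-lox PyMT minus PyMT, 3 in PyMT minus MMTV-Cre and 3 in p38α-lox PyMT minus p38α-lox arrays, where 4.79%, 3.58%, 13.8% and 12.2% of all genes had. Their medians in the same order were 0.14, −0.10, −0.25 and −0.43, against 0.00, −0.04, 0.03 and −0.02 over all genes.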

How the data were processed

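The deposited values are log2 signals, 1 for each of 45141 probe sets and 16 arrays, made by the authors with RMA, per the submitters' processing notes; no source used here states RMA's version or options. RMA makes arrays alike in distribution, so total RNA cannot be compared. Of 29449 annotated probe sets, 28898 carried 1 symbol. Each gene was read by its probe set of highest mean; 14410 of 17097 genes, at or above the 25th percentile of probe-set means (3.67), were tested. limma 3.58.1 (R 4.3.3) fitted 1 linear model over all 16 arrays (12 residual and 2.83 prior degrees of freedom) with moderated two-sided contrasts and default eBayes. Calls needed a p below 0.05 after Benjamini-Hochberg adjustment across the tested genes. Errors after ± on differences are standard errors. Single probe sets were fitted over all 33856 above the filter and tested by exact two-sided permutation. The procedure was tested on simulated data. Precision is limited by the number of arrays. The markers, gene lists and tests were chosen with earlier results of these data known. Named genes are the 7 markers, Mapk14, partners of the markers, up to 2 genes of lowest p from each list, and the 3 most correlated genes of each marker. Alternatives were other filters, probe-set choices, normalizations, weights, eBayes options and sample sets.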

Additional observations from a re-analysis of the deposited data

Results flagged for a closer look

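Of 44 groups of 4 values (11 probe sets in 4 genotype groups), 2 held an array that stood apart by Dixon's test; chance gives about 1 in 20. Cd24a was 11.55 by its main probe set in p38α-lox replicate 2, where the other p38α-lox arrays lay within 0.01 of 11.90. This array also had the second lowest median correlation with the others. The second Cd24a probe set did not show it low, at 11.62 against 11.64, 11.64 and 11.53 in p38α-lox replicates 1, 3 and 4. Itgb3 was 5.34 in MMTV-Cre replicate 4, against 5.56 to 5.59 in the other MMTV-Cre arrays. No marker passed the test for a p38α-lox difference that depends on PyMT.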

How the results depend on the processing

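Each result was recomputed in 8 fits that left out 1 array and 13 other settings (28 fits in all for each interaction). In PyMT minus MMTV-Cre the Aldh1a3 difference kept its sign in all 21, between −2.11 and −1.46, and its adjusted p ran from 0.00644 to 0.418. Of the markers tested, 1 was called there; with no filter, with only the compared arrays, within the low title range, and without both p38α-lox replicate 2 and PyMT replicate 4, 0 were called. Single arrays left out gave 0 to 1 (differences −2.11 to −1.52). Aldh1a3 differed by −1.85 with no filter, −1.85 with only the compared arrays, −1.52 without the pair, and −1.74 and −1.46 in the low and high title ranges, none past the threshold. Array weights gave 2 calls, with Itgb3 at 1.74, and 1 call, Kit at −1.65, in p38α-lox PyMT minus p38α-lox arrays; over all genes they gave 1268 calls in the first comparison, against 182, and 1416 in the second, against 112. In the high range Itgb3 was 3.75 in PyMT minus MMTV-Cre, from 1 PyMT array that the fit assumes to vary like the others, and 1.61 in p38α-lox PyMT minus p38α-lox arrays, where it was 1 call. Leaving out 1 array gave 49 to 443 and 26 to 194 gene calls, and only the compared arrays gave 55 and 169. All genes called in the low range numbered 3 and 0, and in the high range 839 and 131; without the pair of arrays they were 111 and 104. In the p38α-lox minus MMTV-Cre comparison Kit (1.03 to 1.83) and Aldh1a3 (−1.83 to −1.04) kept their signs and stayed uncalled in all 21.

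Other signs turned, none of them for Aldh1a3 in PyMT minus MMTV-Cre, the 1 call of the main fit. Itgb3 in p38α-lox PyMT minus p38α-lox arrays, called in the high title range, was negative in the low range. With array weights Cd14 was −0.076, Itga2 −0.24, Itgb3 −0.34 and Cd24a 0.0020 in p38α-lox minus MMTV-Cre, Itga2 −0.11 in p38α-lox PyMT minus PyMT, Cd24a 0.046 in PyMT minus MMTV-Cre, Aldh1a3 0.055 in p38α-lox PyMT minus p38α-lox, and the Itga2 interaction 0.13. With arrays centred on their medians these last 2 were 0.035 and 0.0052, and the Itga2 interaction was 0.041 with the title range as a covariate. In the high range Itga2 was −0.48, Itgb3 −0.52 and Cd24a 0.030 in p38α-lox minus MMTV-Cre, Itga2 −0.21 and Aldh1a3 −0.49 in p38α-lox PyMT minus PyMT, Cd24a 0.00077 in PyMT minus MMTV-Cre, and the Itga2 interaction 0.27. In the low range Kit was −0.059 in PyMT minus MMTV-Cre and 0.32 in p38α-lox PyMT minus PyMT, and Itgb3 −0.86 and Aldh1a3 0.30 in p38α-lox PyMT minus p38α-lox. Without p38α-lox replicate 2 and PyMT replicate 4 the values were −0.053 for Aldh1a3 in p38α-lox PyMT minus PyMT and 0.062 in p38α-lox PyMT minus p38α-lox, −0.082 for Itga2 and −0.27 for Itgb3 in p38α-lox minus MMTV-Cre, 0.067 for Cd24a in PyMT minus MMTV-Cre and 0.17 for the Itga2 interaction. Leaving out single arrays gave sign changes within these ranges. In p38α-lox minus MMTV-Cre Cd14 ran from −0.23 to 0.23, Itga2 from −0.082 to 0.39 and Itgb3 from −0.27 to 0.94. In PyMT minus MMTV-Cre Kit ran from −0.11 to 0.69, Cd14 from −0.78 to 0.018 and Cd24a from −0.17 to 0.067. In p38α-lox PyMT minus PyMT Aldh1a3 ran from −0.053 to 0.54 and Itga2 from −0.15 to 0.33. In p38α-lox PyMT minus p38α-lox Aldh1a3 ran from −0.30 to 0.26 and Itgb3 from −0.014 to 1.19, and the Itga2 interaction ran from −0.36 to 0.23. The cause of these changes was not tested.

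No paired analysis was possible because the replicate numbers were given in accession order and pair no samples. Aldh1a1 lay too close to background for any statement about change.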
